A study of Homo sapiens with 12 samples.

Results

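The windows described here are the most upstream short windows of genes in an m6A immunoprecipitation data set, the listed windows nearest the 5′ end of each gene. N6-methyladenosine (m6A) was mapped on polyadenylated RNA of NOMO-1 cells, an established human acute myeloid leukaemia (AML) line, carrying lentiviral guides sgMETTL16-1 or sgMETTL16-2 against the RNA methyltransferase METTL16, or the control guide sgNS. Infected cells of all 3 groups were kept in puromycin at 2 ug/ml for 1 to 2 weeks, the labels name no other treatment, and they do not say whether replicates came from separate cultures or whether the cells are clones. Each guide had 2 libraries of input RNA and 2 of RNA pulled down by an antibody to m6A (IP), 12 in all. The authors compared each METTL16 guide with sgNS and deposited the results as 4 tables, a first and a second for each guide, and every row describes 1 stretch of RNA, called a window here. In each table, the row nearest the 5′ end was taken for every gene with at least 5 rows on 1 strand, and it was kept if it was a single block, unbroken by an intron, and under 1000 bases long.

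This gave 3861 of 79372 windows in the first table and 3508 of 71406 in the second sgMETTL16-1 table, and 3755 of 75788 and 3417 of 70002 in the first and the second table of sgMETTL16-2. They came from 7108, 6338, 6785 and 6173 genes with enough rows, in the same order. The row nearest the 5′ end was spliced, and so left out, in 3231, 2819, 3009 and 2741 of those genes, and was 1000 bases or longer in 16, 11, 21 and 15. The windows were short, with a median of 120 bases and quartiles of 90 and 180 bases in each table. The longest windows kept were those of GPAT4 (957 bases), AKAP2 (987), WBP1L (990) and CHMP1B (991), with log2 fold changes of 0.24, 0.50, 0.67 and -0.084 in the authors' deposited tables. The nearest ones left out for length were those of MAP3K11 (1013 bases), TMEM229B (1017), TLE3 (1016) and AMIGO3 (1011), with -0.033, 0.58, 0.39 and 0.42 in the authors' deposited tables.

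m6A is written on messenger RNA mostly by the METTL3-METTL14 complex at a short motif around the sequence GGAC, and it is densest around stop codons, in 3′ untranslated regions and in long internal exons. METTL16 is a separate enzyme that methylates the U6 small nuclear RNA and hairpins in the 3′ end of MAT2A messenger RNA. The 5′ end of a transcript is of interest for another reason: where the first transcribed base is an adenosine, the base next to the cap can carry m6Am, a related mark made by PCIF1, and antibodies against m6A also bind m6Am. Reads at a 5′ end can therefore come from either mark. Immunoprecipitation does not separate them.

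The sequences around the annotated start are printed for 6 genes whose window held that start, because the results below turn on these windows. The windows of ITPKC, SLMAP, STX16 and TFCP2 were enriched in all 4 tables, and those of PCBP1 and HNRNPD were called higher in a knockout. Each run gives 40 bases before the start and 20 bases from it, on the gene's own strand, from the RefSeq promoter table for GRCh38.p14, and the capital marks the first transcribed base.
ITPKC (chr19:40717072-40717131, plus strand): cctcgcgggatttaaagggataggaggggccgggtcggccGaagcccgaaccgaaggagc
SLMAP (chr3:57757216-57757275, plus strand): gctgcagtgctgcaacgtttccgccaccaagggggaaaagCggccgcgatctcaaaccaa
STX16 (chr20:58651243-58651302, plus strand): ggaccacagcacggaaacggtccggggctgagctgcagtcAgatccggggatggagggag
TFCP2 (chr12:51173116-51173175, minus strand): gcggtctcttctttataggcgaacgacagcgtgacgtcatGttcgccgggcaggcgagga
PCBP1 (chr2:70087437-70087496, plus strand): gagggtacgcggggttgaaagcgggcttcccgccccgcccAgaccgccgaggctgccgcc
HNRNPD (chr4:82373972-82374031, minus strand): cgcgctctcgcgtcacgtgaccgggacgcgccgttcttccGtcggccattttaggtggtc
Of the 4 genes enriched in every table, STX16 alone has an annotated start at A, while ITPKC and TFCP2 start at G and SLMAP at C.

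Values of single libraries are not in the tables, so depth is unknown and a replicate error cannot be given. An FDR under 0.05 in the authors' columns makes a window called where it refers to the knockout against sgNS, and enriched where it refers to IP against input. Positive log2 fold changes are read as more m6A in the knockout, which the tables do not state. Nor is it stated which sgNS libraries were used in each, and both first tables, or both second tables, may share them. Windows of different tables are matched when they share at least 0.5 of the bases of each. As a check of the labelled cell type, 25 to 27 of 27 myeloid differentiation genes had a window of any kind in a table, against 5 of 15 lymphoid and erythroid marker genes.

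Few of the most upstream short windows were enriched in IP over input. In the first and the second sgMETTL16-1 table, 177 windows (4.58%, 95% exact binomial interval 3.95 to 5.29) and 233 (6.64%, 5.84 to 7.52) were enriched. For sgMETTL16-2 the counts were 230 (6.13%, 5.38 to 6.94) and 234 (6.85%, 6.02 to 7.75), and all these intervals cover counting error only. Over all windows the shares were 8.1%, 11.9%, 10.2% and 12.3%. The most downstream short windows of genes, chosen by the same rule at the 3′ end, reached 4.14%, 7.56%, 5.13% and 6.94%, and short windows between the ends of the same genes 5.02%, 8.16%, 6.58% and 8.50%. Intervals of upstream and downstream windows overlapped in all 4 tables, though overlap of separate intervals is no test of a difference. Those of upstream windows and of windows between the ends overlapped in both first tables. In both second tables the upstream interval lay lower (5.84 to 7.52 against 7.83 to 8.49 for sgMETTL16-1, 6.02 to 7.75 against 8.16 to 8.85 for sgMETTL16-2).

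The share enriched followed the length of the window. Among upstream windows under 100 bases, 3 of 1878, 4 of 1643, 2 of 1807 and 2 of 1550 were enriched, with the tables of sgMETTL16-1 before those of sgMETTL16-2. Of those from 200 to under 400 bases long 11.6%, 17.3%, 15.0% and 18.7% were enriched, and of those of 400 bases or more 42.7%, 55.3%, 50.2% and 53.7%. Downstream windows of 400 bases or more gave 42.0%, 58.9%, 50% and 54.5%, and windows between the ends 38.9%, 52.3%, 44.1% and 55.1%. In that longest class the upstream share lay within the interval of the downstream share in each table. Enriched upstream windows had a median length of 360, 355, 361 and 358.5 bases, against 91, 91, 91 and 120 bases for the rest.

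**Figure D1:**
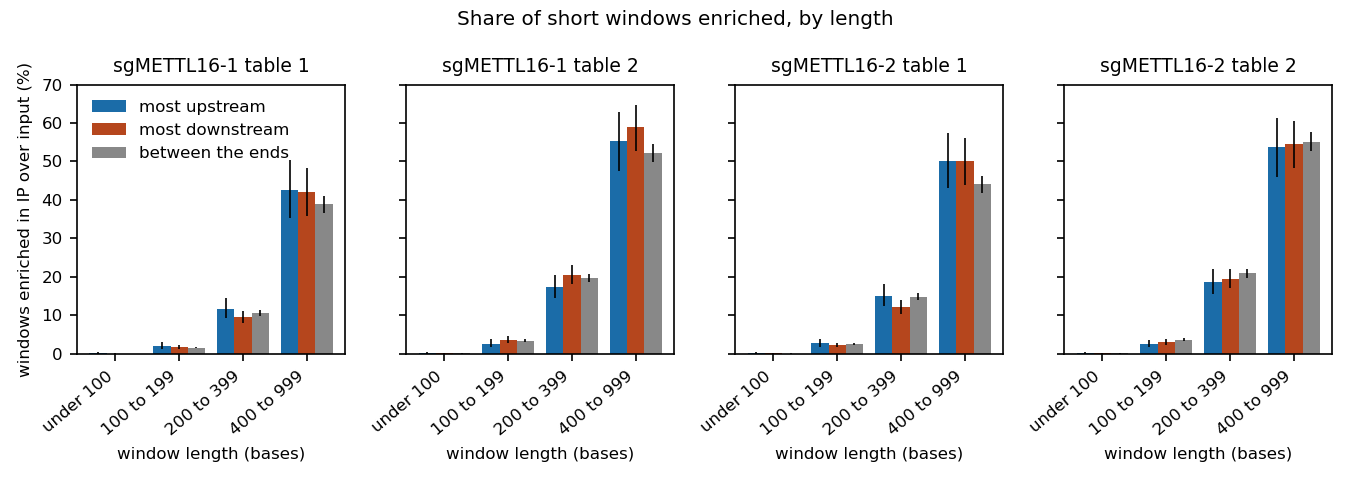
Percent of short single-block windows enriched in IP over input (y axis) by window length in bases (x axis), in each deposited table, for the most upstream windows, the most downstream windows and the windows between them. Bars start at 0 and error bars are 95% exact binomial intervals. In every table the share rose from under 1% below 100 bases to between 38.9% and 58.9% at 400 bases or more, at each of the 3 positions.

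Many values of the upstream windows recur exactly. In the first sgMETTL16-1 table, 1421 upstream windows (36.8%) had a fold enrichment of 1.48, 2.23, 2.97 or 3.71 in the authors' deposited table. These were the lowest values that passed a set number of repeats. With the lowest set at 2 steps, the others are 3.01, 4.01 and 5.01 times the same step. The recurring values made up 39.9% in the second table of that guide and 38.7% and 38.3% in the tables of sgMETTL16-2. The log2 fold change was exactly 0 in 9.10% to 10.2% of the windows and exactly 1 or -1 in 10.8% to 13.5%. Between 10 and 18 windows with a recurring fold enrichment were enriched in a table, and at most 3 were called.

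Being nearest the 5′ end among listed windows is not the same as lying at the start of the gene. A start annotated in RefSeq was matched for 3061, 2797, 3005 and 2720 windows (79.3% to 80.0%). The window held such a start in 548, 673, 618 and 653 cases (17.9%, 24.1%, 20.6% and 24.0%), and 65.4% to 71.5% lay within 1000 bases of it. Its upstream edge lay a median of 120, 57, 90 and 60 bases downstream of the start, but at the third quartile 5141, 1837, 4264 and 2181.5 bases. A window far downstream can begin at another start that the table does not list, since exons were not used here.

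The share enriched was compared by distance from the start, without a test. In the first sgMETTL16-1 table, 0.61% of windows that ended before the start were enriched, 4.20% of those that held it and 8.48% of those more than 10000 bases downstream. The corresponding shares were 1.65%, 7.88% and 10.8% in the second table of that guide, 0.94%, 5.83% and 10.2% in the first sgMETTL16-2 table, and 3.2%, 6.43% and 9.27% in its second table. The intervals of windows that held the start and of those beyond 10000 bases overlapped in each table but the first of sgMETTL16-1 (2.68 to 6.23 against 6.40 to 11.0). Counting windows of at least 200 bases alone, the shares were 13.5%, 31.8%, 19.9% and 22.4% where the window held the start and 27.1%, 37.6%, 35.4% and 34.2% beyond 10000 bases. Their exact binomial intervals overlapped in 3 of the 4 tables, the exception by a narrow margin being the first sgMETTL16-2 table (13.7 to 27.3 against 27.7 to 43.7). Overlap of separate intervals is no test of a difference. In every table, at all lengths and from 200 bases, the share was lower where the window held the start.

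The values of enriched windows were set out by distance from the start. Where the window held the start, the median log2 fold change in the authors' deposited tables was 0.043 and 0.23 for sgMETTL16-1 and 0.31 and 0.18 for sgMETTL16-2. With the edge 1 to 100 bases downstream it was 0.020 and 0.26 with the first guide and 0.37 and 0.31 with the second, as the authors' deposited tables list them. More than 10000 bases downstream it was -0.040 and 0.16 with the first guide and 0.045 and -0.032 with the second, as the authors' deposited tables list them. The classes between did not form a steady order: above 100 and up to 1000 bases the medians were 0.084 and 0.24, then 0.32 and 0.025, and from there to 10000 bases -0.044 and 0.18, then 0.020 and 0.098, in the authors' deposited tables. These medians rest on 20 to 57 windows each and were not tested, and tables that share controls do not count as separate results. All enriched upstream windows together had medians of 0.0074 and 0.21, and 0.21 and 0.16, against -0.038 and 0.13, and 0.13 and 0.14, over all enriched windows in the authors' deposited tables. The number above 0 was 90 of 177 and 161 of 233 for sgMETTL16-1, and 156 of 230 and 150 of 234 for sgMETTL16-2.

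**Figure D2:**
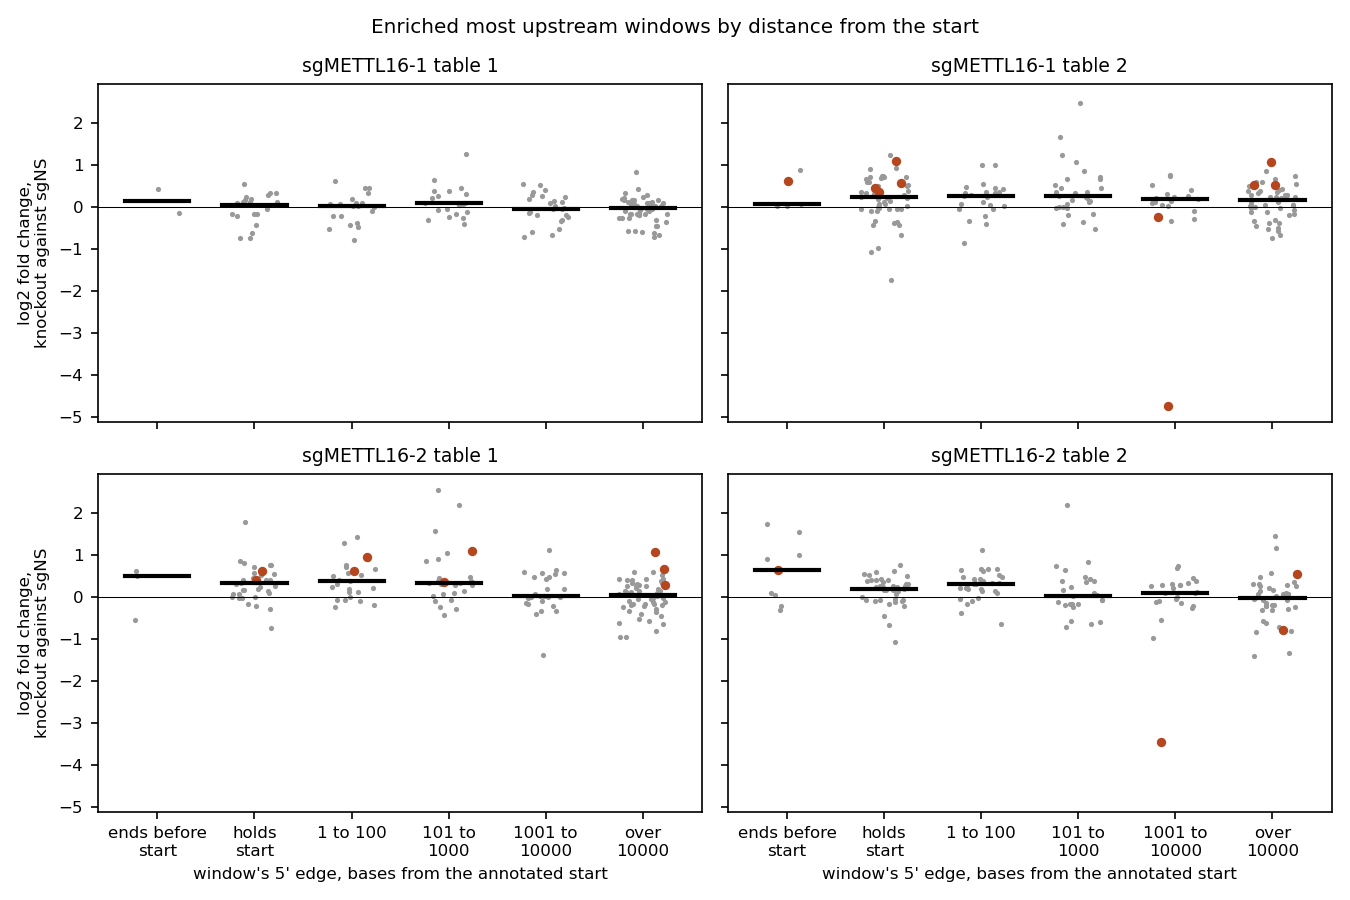
Log2 fold change of knockout against sgNS (y axis) of each enriched most upstream window, by the distance in bases of its 5′ edge from the annotated start (x axis), with a panel for each deposited table. Points are windows, red where called, and black bars are medians. In the first sgMETTL16-2 table the median is 0.31 where the window holds the start and 0.045 beyond 10000 bases, and the point of RPS23 stands alone at -4.75 and -3.46 in the second tables.

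In the first sgMETTL16-2 table the upstream windows as a whole lay above 0 more often than below. There 1927 upstream windows were above 0 and 1444 below, while short windows between the ends had 12650 above and 16198 below, and the most downstream ones 2481 and 3280. The median log2 fold change in that deposited table of the authors was 0.25 where the upstream window held the start, 0.26 at 1 to 100 bases and 0.14 from there to 1000 bases downstream, and 0 beyond. Upstream windows from 100 to under 200 bases had a median of 0.17 in the authors' deposited table, against -0.12 for windows of that length between the ends and -0.15 for downstream ones. In the other 3 tables upstream windows were nearly balanced, with 1769 above 0 and 1718 below in the first sgMETTL16-1 table, 1630 and 1546 in the second of that guide, and 1552 and 1554 in the second sgMETTL16-2 table. Short windows between the ends had 15292 above and 15629 below, 11544 and 13043, and 11047 and 12545 there, so in both second tables they also lay below 0 more often than the upstream ones, by less. These differences were not tested.

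Calls were few, and in each table a smaller share of the upstream windows was called than of all windows (0.0%, 0.371%, 0.692% and 0.176% against 0.355%, 0.749%, 1.84% and 0.734%). Calls were also rare among the other short windows, with 0.0581%, 0.265%, 0.565% and 0.12% of the most downstream ones and 0.0866%, 0.193%, 0.968% and 0.241% of those between the ends. The first sgMETTL16-1 table called no upstream window, lower or higher, although 102 had an unadjusted p under 0.05, where 0.281% of all its windows were called lower and 0.0743% higher. Its second table called 2 lower and 11 higher of 3508, where the shares over all windows were 0.167% and 0.583%. The first sgMETTL16-2 table called 10 lower and 16 higher of 3755, against 0.965% and 0.875% of all windows. Its second table called 3 lower and 3 higher of 3417, against 0.149% and 0.586%. With genes of at least 10 rows, 0 lower and 1 higher were left in the second sgMETTL16-1 table, 1 and 1 in the first table and 0 and 0 in the second sgMETTL16-2 table, where fewer genes qualify. The deposited p-value behaves as one-sided, and when it was doubled 7 of the 11 higher windows, 6 of the 10 lower and 1 of the 3 higher ones kept their call in those tables. Of the called windows named below, those of HNRNPD, AP3S2, YBX1, ARIH1, EIF4EBP2, PPP3R1, ZFP36L2, RBBP4, P3H1, DCAF8 and DCTN1 lost it.

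No window that was a most upstream short one in both tables of a guide, and matched between them, was called in the same direction in both. PCBP1, described below, was called higher in both tables of sgMETTL16-2. Its window in the second of them is not among the most upstream ones counted. Among all short single-block windows matched between the tables of sgMETTL16-1, 0.00791% were called lower and 0.0% higher in both, and for sgMETTL16-2 0.0305% and 0.0762%. The boundaries themselves moved. Of 1954 and 1933 genes with an upstream window in both tables of sgMETTL16-1 and of sgMETTL16-2, it was a matched window in 590 (30.2%) and 638 (33%). Between the guides it matched in 1329 of 2415 genes (55.0%) for the first tables and in 1313 of 2179 (60.3%) for the second tables. Over all 4, 6784 genes had such a window at least once, 1133 had one in all 4 and 142 of these had the same one.

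The place of called windows was counted by direction. Of the 13 calls of lower windows with an annotated start, 0 lay within 1000 bases of it, with RPS23 counted in both second tables. Of the 23 of higher windows 15 did, a share like that of all upstream windows (65.4% to 71.5%). Of the higher calls 25 of 30 were of enriched windows, and of the lower calls 6 of 15. These differences were not tested.

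The decrease of greatest size was in RPS23, a protein of the small ribosomal subunit, at chr5:82276066-82276185 on the minus strand, 2169 bases downstream of the annotated start. Its log2 fold change was -4.75 (FDR = 2.51e-24) in the authors' deposited table, the second of sgMETTL16-1, and -3.46 (FDR = 1.58e-23) in the second sgMETTL16-2 table, there for the longer window chr5:82275917-82276185. In the first tables the same window was at -0.060 and -0.015 in the authors' deposited tables, with FDRs of 0.655 and 0.659. The window was enriched in all 4, with fold enrichments of 1.53 and 3.85 with the first guide and 1.61 and 2.86 with the second, as the authors' deposited tables list them. Thus the value was far below 0 with both guides in the second tables and near 0 with both guides in the first tables. An effect of the guides cannot be told apart from one of sgNS libraries that those tables may share. RPS23 has processed copies elsewhere in the genome, and how reads were divided among them is not given in the sources used here.

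TPT1, a growth-related and very abundant messenger RNA, was the other lower call of sgMETTL16-1, at -0.24 (FDR = 0.00234) in the second of the authors' deposited tables, for the 60 bases of chr13:45340023-45340082. The same window was at -0.16 (FDR = 0.0851) in the authors' deposited table, the second of sgMETTL16-2. The authors' deposited tables give it fold enrichments of 1.05 and 1.06. Lower calls of TPT1 were not limited to this window. Counting all its windows, 2 of 9 and 3 of 7 were called lower with sgMETTL16-1, and 2 of 9 and 1 of 7 with sgMETTL16-2.

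The 11 higher calls of that table were all of enriched windows, between 0.35 and 1.08 in the authors' deposited table. EID1, an inhibitor of EP300-dependent transcription, had the lowest FDR, with 0.59 (FDR = 6.03e-07) in the authors' deposited table at chr15:48878183-48878601. In the authors' deposited tables of sgMETTL16-2 that window was at 0.038 and 0.23, not called. U2AF2, the large subunit of the factor that binds the polypyrimidine tract before a 3′ splice site, was at 0.61 (FDR = 2.24e-05) in the authors' deposited table. Its window, chr19:55654170-55654859, lies upstream of the annotated start. A matched window of U2AF2 was called in the second sgMETTL16-2 table at 0.39 (FDR = 0.038) and was at -0.049 and 0.072 in the first tables, in the authors' deposited tables. HNRNPD, which binds AU-rich elements in messenger RNA, was at 0.44 (FDR = 0.0282) in the authors' deposited table, in a window of 239 bases over the start printed above. Its matched windows were at -0.11 in the first table of that guide, and those of sgMETTL16-2 lay at 0.24 and 0.34, as given in the authors' deposited tables.

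KPNB1, a nuclear import receptor, was at 0.68 (FDR = 0.00158) in the authors' deposited table, the second of sgMETTL16-1. PPP4R3A, a regulatory subunit of protein phosphatase 4, reached 1.08 (FDR = 0.00851) in that deposited table of the authors, and AP3S2, a subunit of a vesicle adaptor complex, 1.07 (FDR = 0.0263). YBX1, an abundant RNA-binding protein, was at 0.35 and the ubiquitin ligase ARIH1 at 0.55 in the authors' deposited table. AKAP2 and the readthrough gene PALM2-AKAP2 share nearly the same window, though the counts of calls include both, at 0.50 and 0.52 in the authors' deposited table. In the first table of the same guide the matched windows of PPP4R3A, AP3S2, YBX1, AKAP2 and PALM2-AKAP2 lay between 0.041 and 0.23 in the authors' deposited table, so the sizes of the second table were not seen there. Counting all windows, PPP4R3A, AKAP2 and PALM2-AKAP2 each had 1 called lower in the first sgMETTL16-2 table. PPP4R3A had 1 called higher in the second table of that guide.

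In the first sgMETTL16-2 table, PCBP1 and SFPQ led the higher calls. PCBP1, a poly(C)-binding protein, was at 0.39 (FDR = 5.01e-11) in the authors' deposited table for chr2:70087453-70087957, which begins 24 bases before the start printed above. Its matched windows were at 0.48 (FDR = 2.51e-12) in the second sgMETTL16-1 table, 0.52 (FDR = 6.31e-19) in the second sgMETTL16-2 table and 0.085 (FDR = 0.655) in the first sgMETTL16-1 table, in the authors' deposited tables. PCBP1 has fewer than 5 rows in those 3 tables, so these windows are not among the most upstream ones counted there. SFPQ, a splicing factor of paraspeckles, was at 0.67 (FDR = 3.16e-11) in the authors' deposited table and between 0.12 and 0.18 in the other 3. Other genes with a higher call in that deposited table of the authors were SCD, the stearoyl-CoA desaturase (0.44, not enriched), and the kinase WNK1 (1.08). The translational repressor EIF4EBP2 (0.62), the calcineurin subunit PPP3R1 (0.36) and the fucose transporter SLC35C1 (3.12, not enriched) followed, as the authors' deposited table gives them. Counting all windows of PPP3R1 there, 1 was called higher and 1 lower. KCNAB2, a potassium channel subunit, was at 0.27 (FDR = 0.000525) in the authors' deposited table and called too in the second sgMETTL16-1 table, at 0.24 (FDR = 0.00209).

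The 10 lower calls of the first sgMETTL16-2 table lay between -0.47 and -1.99 in the authors' deposited table, and 2 of them were of enriched windows. SEC62, of the protein translocation machinery of the endoplasmic reticulum, was at -1.67 (FDR = 0.000288) in the authors' deposited table at chr3:169982753-169982873, 15946 bases downstream of its start. The matched windows of SEC62 were at -0.67 (FDR = 0.169) and 0.67 (FDR = 0.658) in the first and the second of the authors' deposited tables of sgMETTL16-1. The other lower calls included the Golgi protein TMEM167A (-1.69), the mitochondrial translation factor MTIF2 (-1.48), the mitochondrial carrier SLC25A30 (-1.04), the kinase STK17A (-1.84) and the chromatin protein RBBP4 (-0.64), all from the authors' deposited table. None of the 10 had a matched window in the second table of the guide. For TSPAN3, called at -0.47, a window there lay inside the called one but was too short to match. It was at 0.14 (FDR = 0.65) in the authors' deposited table.

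The second sgMETTL16-2 table added CREBZF, a transcription regulator, at 0.64 (FDR = 2.69e-06) in the authors' deposited table, with a matched window of CREBZF at 0.55 (FDR = 0.00178) in the second sgMETTL16-1 table. In the first tables it was at -0.12 and 0.12 in the authors' deposited tables. P3H1, a collagen prolyl hydroxylase (1.29), and DCAF8 (0.53) were the other higher ones in the authors' deposited table. The transcription factor ZFX (-0.80) and the dynactin subunit DCTN1 (-0.95, not enriched) were lower in the authors' deposited table. Over the 4 tables, 5 genes had a window called in a table and a matched one called in another: ARIH1, CREBZF, KCNAB2, PCBP1 and U2AF2, chosen after the values were known. These calls were higher ones, and each pair included a second table. RPS23, called lower in both second tables, is not among the 5, because its windows of 120 and 269 bases share less than 0.5 of the longer one.

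**Figure D3:**
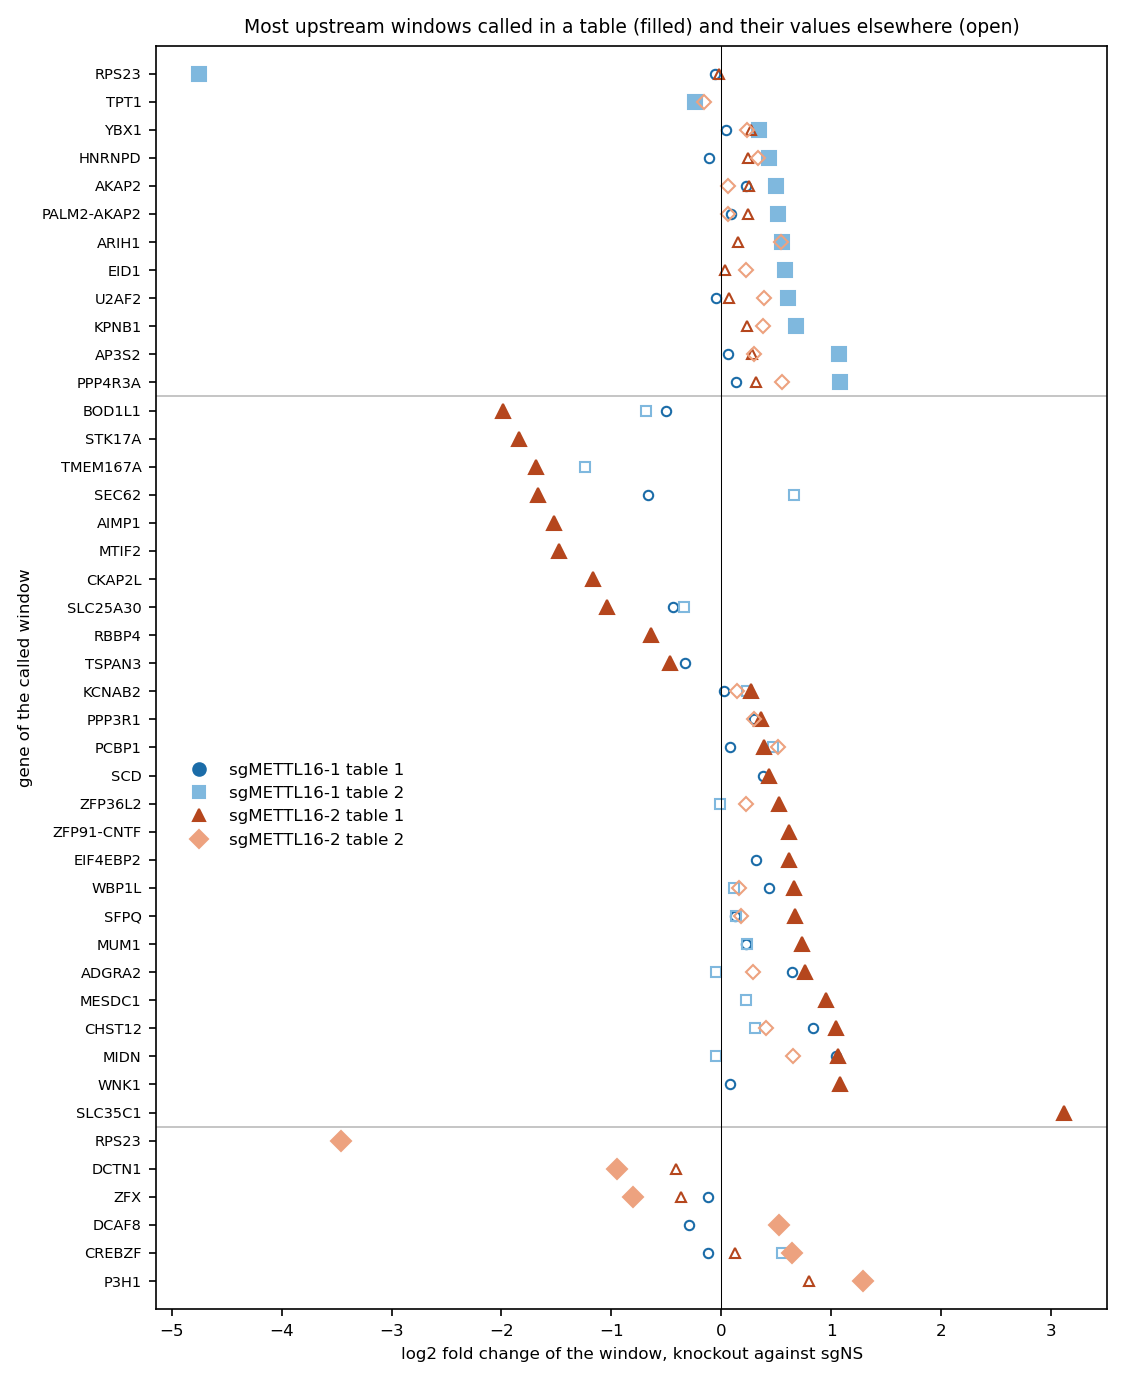
Log2 fold change of knockout against sgNS (x axis) for genes with a most upstream window called in a table (y axis), grouped by that table. Filled symbols are the called windows and open symbols the matched windows in the other tables, whether called or not there. RPS23 lies at -4.75 and -3.46 in the second tables and next to 0 in the others, and the higher windows of the second sgMETTL16-1 table lie at or below 0.23 in the first table of that guide.

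METTL16 itself had such a window in 2 tables, neither called. At its annotated start the window chr17:2511816-2511876, 12 bases downstream, was at 1.58 (FDR = 0.785) and not enriched in the authors' deposited table, the second of sgMETTL16-1. In the first sgMETTL16-2 table the most upstream window was an enriched one 91310 bases downstream, chr17:2419949-2420578, at -0.18 (FDR = 0.659) in the authors' deposited table. Such values set IP against input, say nothing on how much METTL16 transcript was present and give no check of the knockout. MAT2A had too few rows to have such a window in any table.

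The same window was enriched in all 4 tables for 18 genes. ITPKC, a kinase of inositol trisphosphate, had the highest fold enrichment by geometric mean, with 5.94 and 3.66 for sgMETTL16-1 and 5.57 and 2.61 for sgMETTL16-2 in the authors' deposited tables. Its FDR of IP over input lay between 0.00603 and 0.0355. TMEM65, a mitochondrial membrane protein, had 1.99 and 5.07 with the first guide and 3.50 and 7.44 with the second, as the authors' deposited tables list them. Values of this size also recur in windows that were not enriched in the same deposited tables of the authors. CBLL1 had 5.94 in the first and BPTF 5.07 in the second sgMETTL16-1 table, and SETD1A 7.44 in the second sgMETTL16-2 table. The order by fold enrichment is therefore no order by strength of evidence. FAM43A had 3.46, 2.46, 3.10 and 3.32, and the transcription factor TFCP2 5.20, 2.25, 2.90 and 1.95, in the same order in the authors' deposited tables. STX16, a SNARE protein of the trans-Golgi network, had 2.09, 3.94, 2.05 and 2.57 in the authors' deposited tables. Others were ZNF609, TSC22D2, the deubiquitinase VCPIP1, the membrane protein SLMAP, C10orf2 (the mitochondrial DNA helicase Twinkle), CIDEB, PPP4R3B, the RNA-binding protein SYNCRIP, AP3S2, the pyridoxal kinase PDXK, the splicing regulator SFSWAP and the TAK1 adaptor TAB2, between 1.44 and 3.55 throughout the authors' deposited tables. The windows of ITPKC, TFCP2, SLMAP and STX16 held the starts printed above, and in each gene the upstream edge was the same base in all 4 tables.

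Of these 18, only AP3S2 had a call of a difference, and only in the second sgMETTL16-1 table. The log2 fold change was above 0 in all 4 tables for 6 genes, below 0 in all 4 for 2 and on both sides of 0 for 10. Among the 6 were ITPKC (0.33, 0.91, 0.34 and 0.17), FAM43A (0.43, 0.067, 0.55 and 0.65), TSC22D2 (0.30, 0.28, 0.57 and 0.30), PPP4R3B and AP3S2, in the order of the authors' deposited tables. TAB2 was at -0.59, -0.52, -0.82 and -0.85 and ZNF609 at -0.61, -0.024, -0.056 and -0.23 in the authors' deposited tables. For TAB2 the lowest FDR was 0.182 in the authors' deposited tables, so its values of like size in 4 tables did not pass the test in any.

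**Figure D4:**
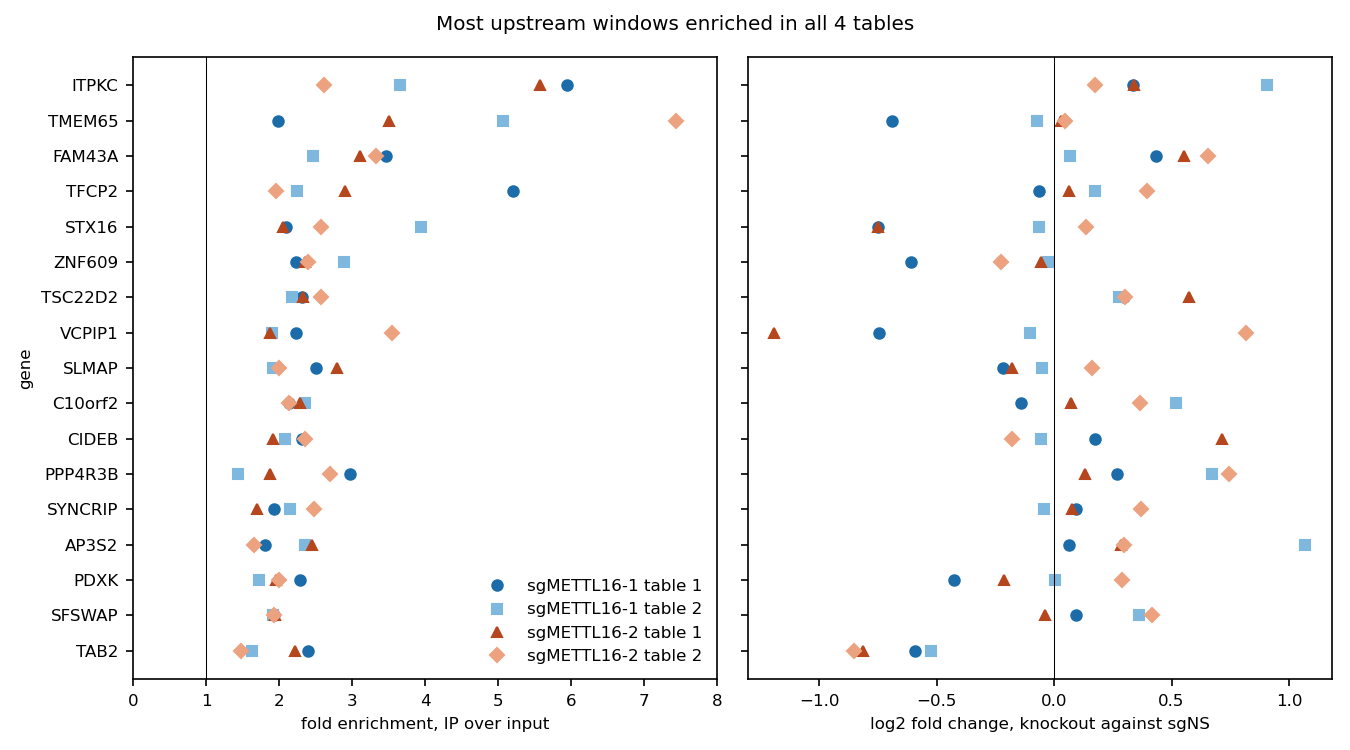
Fold enrichment of IP over input (left, x axis) and log2 fold change of knockout against sgNS (right, x axis) of 17 of the 18 most upstream windows enriched in all 4 deposited tables, with genes in order of their mean fold enrichment on the y axis and a symbol for each table. Fold enrichment of those shown ranged from 1.44 to 7.44, and 10 genes had log2 fold changes on both sides of 0.

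Where the window held the annotated start, the base there was A in 53.5%, 53.5%, 50% and 52.4% of windows, against 44.4% of all 35116 starts in the RefSeq table. Those starts include genes without such a window, so the sets are unlike, and the difference was not tested. Windows with A were no more often enriched beyond counting error than the rest. The shares were 3.75% (exact binomial interval 1.89 to 6.62) against 4.71% (2.45 to 8.08) in the first table and 7.78% (5.23 to 11.0) against 7.99% (5.24 to 11.6) in the second sgMETTL16-1 table. For sgMETTL16-2 they were 6.47% (4.0 to 9.82) against 5.18% (2.99 to 8.27) and 7.02% (4.55 to 10.3) against 5.79% (3.47 to 8.99). With 11 to 28 enriched windows starting at A in a table, differences of this size were not detectable. The annotated base is a reference position, and the base used as start in these cells was not measured here.

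The m6A motif was looked for in the first 50 transcribed bases of windows that held the start, on the transcribed strand alone, as GGACT and as GGAC, the second of which includes the first. GGACT was found in 0 of 23, 6 of 53, 2 of 36 and 4 of 42 enriched windows, and in 5.52%, 5.16%, 5.84% and 5.07% of those not enriched. All starts in the RefSeq table hold it in 4.90% of cases over the same length. GGAC was found in 26.1%, 22.6%, 22.2% and 19% of the enriched and in 20.4%, 19.7%, 21.3% and 22.1% of the other windows, against 18.9% of all starts. The enriched windows run past these bases, and the rest of their sequence was not read.

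Both ends were compared within genes. Of 3740, 3360, 3619 and 3263 genes with a short window at each end, the upstream one was enriched in 173, 222, 226 and 226, and the downstream one too in 18, 22, 17 and 33. These are 10.4%, 9.91%, 7.52% and 14.6% of the genes with an enriched upstream window, where the downstream window was enriched in 4.36%, 7.32%, 5.03% and 6.59% of all these genes. The difference was not tested. In the genes with both enriched the median difference in log2 fold change, upstream minus downstream, was 0.016 and -0.079 for sgMETTL16-1 and 0.22 and -0.028 for sgMETTL16-2 in the authors' deposited tables. The upstream window was above the downstream one in 9 of 18, 8 of 22, 9 of 17 and 16 of 33 genes.

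Of the m6A and m6Am writers, erasers and readers, 12 and 10 of 30 had a most upstream short window in the tables of sgMETTL16-1 and 14 and 6 in those of sgMETTL16-2, and none was called in any table. With 0.0% to 0.692% of all upstream windows called in a table, a set of this size would seldom hold a call. Those of RBM15B, a subunit of the m6A writer complex, began within 100 bases of the start and were at 0.39, 0.36, 0.75 and 0.33 in the authors' deposited tables, with 3 of the 4 enriched. The window of YTHDF3, a cytoplasmic reader, was at -0.25, 0.053, 0.43 and 0.19 and enriched in the tables of sgMETTL16-2, in the authors' deposited tables. METTL3, the main writer, had a window in both tables of sgMETTL16-1, at -0.74 and 0.26 and not enriched, in the authors' deposited tables. ALKBH5, an eraser, was at 0.079, 0.53 and 0.70 in the 3 of the authors' deposited tables with such a window, none enriched.

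In S-adenosylmethionine and methionine metabolism, 3 to 6 of 23 genes had such a window and none was called, where 0.0% to 0.692% of all upstream windows were. SLC7A5, an amino acid transporter that carries methionine, was at -0.0027 and 0.048 with the first guide and 0.40 and 0.14 with the second, as the authors' deposited tables list them, enriched in the last 3. MTR, the methionine synthase, held its start in an enriched window in both second tables, at -1.75 (FDR = 0.658) with sgMETTL16-1 and -1.08 (FDR = 0.65) with sgMETTL16-2, as given in the authors' deposited tables. In the first tables its windows were others, at -0.56 and 1.72 in the authors' deposited tables.

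Among the spliceosome, SR and hnRNP genes 8 to 11 of 47 had a window, and U2AF2 and HNRNPD were called higher, both in the second sgMETTL16-1 table. Of the cytoplasmic ribosomal protein genes 3 to 4 of 78 had a window and RPS23 was called lower in both second tables. Translation initiation and elongation factors had 4 to 6 of 37, with the upstream window of TPT1 lower in 1 table. Immediate early and stress transcription factor genes had 7 to 10 of 27, with ZFP36L2, a zinc finger protein of AU-rich messenger RNA decay, higher at 0.53 (FDR = 0.0479) in the authors' deposited table, the first of sgMETTL16-2. Counting all windows of ZFP36L2 there, 2 were called higher and 1 lower. Histone methyltransferase and chromatin regulator genes had 13 to 22 of 37, AML and leukaemia stem cell genes 3 to 10 of 27, cell cycle genes 6 to 8 of 32, mitochondrial ribosomal protein genes 3 to 5 of 80 and myeloid differentiation genes 3 to 4 of 27, with no call in any table. As 0.0% to 0.692% of all upstream windows were called in a table, sets this small would seldom hold a call. Lymphoid and erythroid marker genes had 0 of 15.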

How the data were processed

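Libraries of input and m6A IP RNA were made with a stranded kit and, per the submitters' processing notes, aligned with STAR to GRCh38. The sources used here give neither the peak caller nor the gene annotation. The authors deposited 4 comparison tables. Per the file headers, a log2 column gives the change between knockout and sgNS, a ratio column the fold enrichment of IP, and a further column the p-value of IP over input. Per the file headers, the score columns are logarithms of p and FDR, for the IP and for the change, read to base 10, which the deposited p-value bears out for the IP and which was assumed for the change. Python 3.11.15 with pandas 2.3.3 and scipy 1.17.1 was used to choose windows, count them and compute exact binomial intervals, and no new test was fitted. The deposited p-values of the change reached 0.514 to 0.537 among strongly enriched windows, the range of a one-sided test. Windows of 2 tables were matched by name, strand and at least 0.5 of the bases of each. Annotated starts came from RefSeq (GRCh38.p14), matched by symbol or by an older symbol that names 1 gene, and deposited coordinates were converted to count from 1. The choice and matching of windows were tested on made-up tables with known answers.

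The windows and the 12 gene lists were chosen with earlier results of these data known. Genes were named by rule: METTL16 and MAT2A, windows that 3 or 4 tables or each table of 1 guide called, the 10 windows enriched in all 4 tables with the highest fold enrichment, the 5 lower and 5 higher windows with the lowest FDR per table, and up to 3 called genes per list. Others are named where counts are spelled out. Alternatives were an FDR of 0.01, enriched windows alone, a two-sided p, windows at the same place counted once, at least 10 rows per gene, a log2 fold change of at least 1, an overlap of 0.8, a length under 500 bases, windows within 100 bases of the start, and each table alone. The values of 2 genes are not reported here, though the counts include them.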

Additional observations from a re-analysis of the deposited data

Results flagged for a closer look

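The window of TMEM65 at the 5′ end was below 0 in both tables of 1 guide and above 0 in both of the other. Its log2 fold change was -0.69 and -0.073 with sgMETTL16-1 and 0.029 and 0.048 with sgMETTL16-2, as listed in the authors' deposited tables. The window was enriched in all 4 tables and called in none, and the difference between the guides was not tested.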

How the results depend on the processing

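Of 124 comparisons of a result with an alternative, 84 stayed within the range set for it and 40 moved. Where the result was 0 calls, stricter settings could only return 0, so many of the 84 could not have moved. Taking a table alone counts calls in that table, a different quantity from calls in both tables of a guide. The tally is therefore no measure of how stable the results are. At an FDR of 0.01 the shares of upstream windows enriched were 2.8% and 4.16% for the first and the second table of sgMETTL16-1 and 3.91% and 4.01% for sgMETTL16-2. Called windows were then 6 higher in the second sgMETTL16-1 table, 6 lower and 8 higher in the first sgMETTL16-2 table, and 1 lower and 1 higher in its second table. By base at the start, the shares enriched at that FDR were 5.0% (A) and 3.51% (not A) in the second sgMETTL16-1 table and 4.68% (A) and 2.89% (not A) in the second sgMETTL16-2 table. Under 500 bases, 3.17%, 5.0%, 4.56% and 4.98% were enriched in the 4 tables. With at least 10 rows per gene, 4.83% and 5.44% were enriched in the second tables, and calls were 0 lower and 1 higher in the second sgMETTL16-1 table, 1 and 1 in the first table and 0 and 0 in the second sgMETTL16-2 table. A log2 fold change of at least 1 left 1 lower and 2 higher calls, then 4 higher, then 1 lower and 1 higher, in the same 3 tables. A two-sided p left 7 higher, 6 lower and 1 higher, and enriched windows alone left 2 lower in the first sgMETTL16-2 table. With windows beginning within 100 bases of the start, 5.15% of those without A were enriched in the second sgMETTL16-1 table. Among windows that were most upstream in both tables of a guide, 0 were called in both. Without replicate 1 or 2, when a table is taken alone, the counts for sgMETTL16-1 ranged from 0 to 2 lower and 0 to 11 higher. For sgMETTL16-2 they ranged from 3 to 10 lower and 3 to 16 higher. Subtracting the median log2 fold change over all enriched windows, from -0.038 to 0.14 by table, turned the sign of 0 called windows, and this check was added once the data had been seen. The called value nearest 0 was -0.24, farther from 0 than any of these medians, so no sign could have turned. No paired analysis was possible because the tables hold the authors' own comparisons and no value per library. Depth is unknown, and windows under 100 bases, few of which were enriched, carry little signal of their own.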

Other observations

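Some upstream windows fell just short of a call in the second sgMETTL16-2 table. SETD2, the histone H3 lysine methyltransferase of transcribed genes, was at -1.33 (FDR = 0.055) in the authors' deposited table at chr3:47123911-47124120, with matched windows at 0.39 (FDR = 0.659) in the first table of that guide and at -0.26 and -0.57 with sgMETTL16-1. LAPTM5, a lysosomal membrane protein of blood cells, was at -0.68 (FDR = 0.0513) in the authors' deposited table, in an enriched window that held its annotated start. Its matched window was called lower in the second sgMETTL16-1 table, at -0.88 (FDR = 0.00603) in the authors' deposited table, where it is not among the most upstream short windows counted. PRKAR1A, a regulatory subunit of protein kinase A, was at 0.72 (FDR = 0.0676) and AAR2, a factor of U5 snRNP assembly, at 0.74 (FDR = 0.0933) in the authors' deposited table.

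In the first sgMETTL16-1 table, which called no upstream window, the lowest FDRs were those of GTF2H5 (-0.59, FDR = 0.116), CHTOP (-0.53, FDR = 0.118), COPA (0.89, FDR = 0.167) and SEC62 (-0.67, FDR = 0.169) in the authors' deposited table. SEC62 was called lower by the first table of the other guide.

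Most upstream windows belonged to protein-coding genes, 3594, 3267, 3491 and 3177 in the 4 tables, and 162, 148, 158 and 152 to long non-coding RNAs. A start annotated on the opposite strand lay inside 45, 49, 53 and 50 of the windows (1.17% to 1.46%). Windows with the same coordinates under another gene name numbered 16, 21, 14 and 12.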
